A study of Homo sapiens with 15 samples.

Results

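Expression of 9 genes of the complement system was followed in A549, an epithelial cell line from a human lung adenocarcinoma, after a glucocorticoid and 3 compounds given with it. The genes were 3 membrane regulators (CD55, CD46 and CD59), 5 components (C3, C5, CFB, C1S and C1R) and the secreted inhibitor SERPING1. All probe sets that the array's annotation assigns to these symbols were taken, which gave 9 of 19775 named genes and 19 of 54675 probe sets, none shared with a further gene symbol. Of the 19, 17 probe sets of 8 genes passed a filter on low signals and were tested. The 2 that did not pass were the only SERPING1 probe set and 1 of 2 CFB probe sets.

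The study used 15 arrays in 5 groups of 3. The first group was non-treated, and the second received the synthetic glucocorticoid dexamethasone for 6 hours. In the other three, 48 hours of mifepristone, of match polyamide or of mismatch polyamide were combined with 6 hours of dexamethasone. Mifepristone is an antagonist of the glucocorticoid receptor. The polyamides are synthetic ligands of the DNA minor groove, and the match compound, by the title of the series, is meant for the glucocorticoid response element (GRE), the DNA motif at which the hormone-bound receptor acts. All groups grew in F12K medium with charcoal-treated serum, which is low in steroids. Doses and any vehicle are not known here. The labels do not say whether the arrays of a group came from separate cultures, so the p-values reflect the spread of these arrays alone, and that spread may be technical.

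Complement is a cascade of plasma and cell surface proteins that marks cells and microbes for clearance. The C1 complex, with the proteases C1r and C1s, starts its classical pathway, and factor B forms the protease of the alternative pathway. Both routes cleave C3, the protein on which all pathways converge, and then C5, whose larger fragment begins the pore-forming membrane attack complex. Host cells carry CD55, which speeds the decay of the enzymes that cleave C3 and C5, CD46, a cofactor for the inactivation of C3b and C4b, and CD59, which blocks the pore. C1 inhibitor, the product of SERPING1, inactivates C1r and C1s. Liver makes most plasma complement, and airway epithelial cells make several components locally and carry the membrane regulators.

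RefSeq promoter windows of build GRCh38.p14 were matched for 6 of the 9 genes, 12 windows in all, and the 250 bases before each start site were searched on both strands. The search covered the GRE half-site AGAACA, the full GRE (AGAACA, any 3 bases, then TGTTCT, so it holds the half-site on each strand), the interferon response core (GAAA, any 2 bases, then GAAA) and the cyclic AMP response half-site TGACG. Of 35116 such windows in the table, 12.4% held AGAACA, 0.0028% the full GRE, 3.02% the interferon response core and 21.2% TGACG. No member's window held the full GRE, and AGAACA stood in both windows of CD46 and in the window of CFB. CFB also held the interferon response core, and TGACG stood in windows of CD55, CD46, C5 and C1R. None of the 4 motifs was in any of the 4 CD59 windows. A match is a description of the letters and shows no binding. Windows of 4 genes are printed 5′ to 3′ on the strand of each gene, with AGAACA (here as its reverse complement) and TGACG in capitals, because CD55 and CD46 lie near each other on chromosome 1 and their signals moved differently, and CD59 and C5 differed between the polyamides. They lie at chr1:207321428-207321677 (plus strand, CD55), chr1:207751788-207752037 (plus strand, CD46), chr11:33736480-33736729 (minus strand, CD59) and chr9:121074866-121075115 (minus strand, C5), each just upstream of an annotated start.
CD55: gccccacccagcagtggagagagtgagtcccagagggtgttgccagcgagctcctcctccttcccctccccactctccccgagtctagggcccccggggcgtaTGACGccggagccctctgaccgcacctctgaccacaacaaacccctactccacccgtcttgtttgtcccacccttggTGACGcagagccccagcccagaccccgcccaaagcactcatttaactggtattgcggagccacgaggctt
CD46: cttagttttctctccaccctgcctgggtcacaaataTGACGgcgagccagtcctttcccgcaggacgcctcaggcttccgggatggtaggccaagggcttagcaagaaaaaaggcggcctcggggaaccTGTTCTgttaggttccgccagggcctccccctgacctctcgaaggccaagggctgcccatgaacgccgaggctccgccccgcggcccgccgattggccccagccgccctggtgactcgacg
CD59: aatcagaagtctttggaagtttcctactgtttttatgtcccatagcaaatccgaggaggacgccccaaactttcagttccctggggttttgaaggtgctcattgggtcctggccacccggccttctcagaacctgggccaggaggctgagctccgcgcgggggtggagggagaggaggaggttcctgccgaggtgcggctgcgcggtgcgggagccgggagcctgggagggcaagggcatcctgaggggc
C5: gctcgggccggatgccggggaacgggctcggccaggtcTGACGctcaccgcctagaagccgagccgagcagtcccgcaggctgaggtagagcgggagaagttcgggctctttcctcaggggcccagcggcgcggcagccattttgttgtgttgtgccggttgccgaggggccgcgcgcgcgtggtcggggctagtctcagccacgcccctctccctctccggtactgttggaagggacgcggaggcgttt
In CD55 the 2 matches of TGACG lay 147 to 143 and 70 to 66 bases upstream of the start. In the CD46 window the match of AGAACA lay 121 to 116 bases upstream and that of TGACG 214 to 210 bases upstream.

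Signals are given below as quantile-normalized MAS5 signals, on a linear scale on which the median of each array was 18.3 and its 40th percentile 12.0. Differences are log2 differences of group means of log2(signal + 16), with the standard error (SE) and the adjusted p of limma fitted to all 39744 tested probe sets, and calls were made at an adjusted p under 0.05. The added 16 understates the change of genes with low signals. The same dexamethasone arrays served each comparison of a compound with dexamethasone, so those comparisons are not independent. The RNA came from whole cultures, in which fewer cells with a transcript and less transcript per cell cannot be told apart.

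Hormone targets served as a check of the labels. FKBP5 and TSC22D3, textbook targets of the glucocorticoid receptor, were 3.48 and 3.01 higher (log2) with dexamethasone than in non-treated cells, and with mifepristone they fell by 2.20 and fell by 2.46 against dexamethasone (adjusted p of limma at most 1.3e-12 in these 4 tests). With mifepristone they stayed 1.28 and 0.55 above non-treated cells. Against dexamethasone they were called lower with match (-2.27 and -0.70) and with mismatch (-0.84 and -0.39). The TSC22D3 call with mismatch was lost on signals as deposited and with median centring. Summed signals of 5 epithelial markers ran from 14335 to 17686, and those of 5 leukocyte, 3 endothelial and 5 hepatocyte markers from 73.1 to 120, 36.1 to 74.9 and 44.0 to 104.5 (lowest and highest array). The 5 fibroblast markers summed to 127 to 195 without a polyamide, 247 to 301 with match and 186 to 224 with mismatch. Their sum followed COL1A1, a collagen gene, whose log2 difference of match from dexamethasone was 1.01 (adjusted p = 2.6e-07), while COL1A2, DCN and LUM lay at mean signals of 9.66 to 20.6 with the polyamides. Its part in the results below was not tested. Of the 5 epithelial markers, match raised 2 (21.5% of all genes were called higher) and lowered 3 (17.4% of all) against dexamethasone. Mismatch raised 2 (17.9% of all) and lowered 2 (11.8% of all). With match, EPCAM was higher, at 1.76 (adjusted p = 1.2e-10), and CDH1 lower, at -1.50 (adjusted p = 2.3e-10).

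CD55 carried the largest rise among the 9 genes: all 3 of its probe sets rose with both polyamides, and rose more with match. On 201925_s_at the non-treated arrays read 619, 647 and 647 and the dexamethasone arrays 623, 528 and 557. The mifepristone arrays read 598, 593 and 550.1, the match arrays 3169.8, 3001 and 2672 and the mismatch arrays 1701, 1733 and 1813. The match arrays were all above the mismatch arrays, which were all above the 9 arrays without a polyamide. Mean signals were 569 ± 48.6 with dexamethasone, 2948 ± 253 with match and 1749 ± 57.7 with mismatch (SD, n = 3). Match raised this probe set 5.06-fold over dexamethasone, a log2 difference of 2.34 (SE 0.07, adjusted p = 7.1e-15). Mismatch raised it 3.02-fold, a log2 difference of 1.60 (SE 0.07, adjusted p = 5.0e-12). Match exceeded mismatch by 0.74 (SE 0.07, adjusted p = 4.3e-07). These are large changes in the whole table, since among 39744 log2 differences the 3 CD55 probe sets ranked 19, 20 and 37 from the highest with match and 28, 66 and 97 with mismatch.

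The other two CD55 probe sets moved alike. With match, 1555950_a_at was 2.10 and 201926_s_at 2.33 higher than with dexamethasone, and with mismatch 1.29 and 1.38 higher. Match exceeded mismatch by 0.81 and 0.95 on them (adjusted p = 1.1e-07 and 1.8e-08). Neither dexamethasone nor mifepristone moved CD55 past the test: dexamethasone differed from non-treated cells by 0.02, -0.16 and 0.00, and mifepristone from dexamethasone by 0.02, 0.03 and 0.09 on 1555950_a_at, 201925_s_at and 201926_s_at. The 95% interval of the dexamethasone difference on 201925_s_at was -0.31 to -0.01. On the signals as deposited, where mifepristone arrays were brighter by a median of 0.34 over all probe sets, the 3 CD55 probe sets were called higher with mifepristone (0.46, 0.48 and 0.53), or 0.12, 0.14 and 0.19 relative to that shift.

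**Figure D1:**
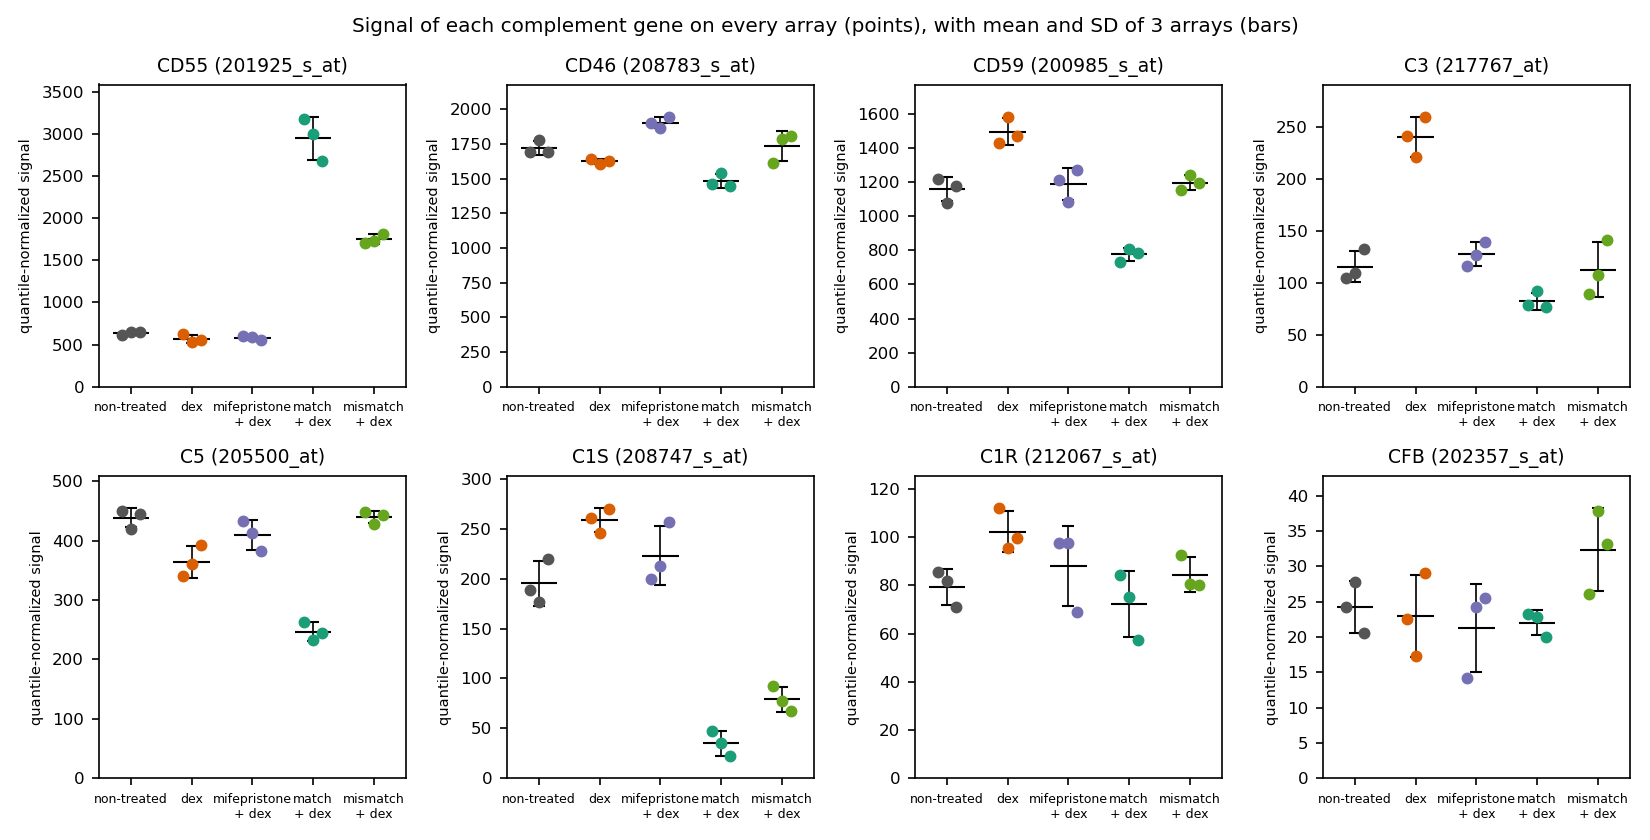
Quantile-normalized signal (vertical axes, linear, from 0) of 1 probe set for each of the 8 tested complement genes in the 5 groups (horizontal axes, dex is dexamethasone). Points are arrays, and bars are the mean and SD of 3. CD55 is high on the match and mismatch arrays, C3 on the dexamethasone arrays, and C1S is low on the match and mismatch arrays.

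CD46 moved little. It lies on chromosome 1 as CD55 does, 391 kb from it in GRCh38.p14 (CD55 at 207321678 to 207360966, CD46 at 207752038 to 207795516). On 208783_s_at the non-treated arrays read 1689, 1779 and 1694, the dexamethasone arrays 1639.8, 1605 and 1627 and the mifepristone arrays 1902, 1864 and 1944. The match arrays read 1457, 1538 and 1447 and the mismatch arrays 1614, 1786 and 1805. The match arrays lay below all others, and the mifepristone arrays above all others. The mifepristone difference from dexamethasone passed the test at 0.23 (SE 0.05, adjusted p = 0.017). It failed without dexamethasone replicate 2 or 3 or mifepristone replicate 1 or 3 (adjusted p = 0.057 to 0.075) with trimmed-mean scaling (0.17, adjusted p = 0.18) and with no variance trend (adjusted p = 0.21). On signals as deposited CD46 differed by 0.62, or 0.28 relative to the shift of all probe sets. Match was lower than mismatch, a log2 difference of -0.23 (SE 0.05, adjusted p = 0.0054), which was -0.43 (adjusted p = 0.071) as deposited and did not pass with no variance trend (adjusted p = 0.076). Match was -0.13 (adjusted p = 0.07) from dexamethasone, which did not pass, except with the filter at the 60th percentile (adjusted p = 0.043). Against non-treated cells, match was called lower, at -0.21 (adjusted p = 0.0040). That call was lost as deposited (-0.15, adjusted p = 0.54) and with no variance trend (adjusted p = 0.058). The other two CD46 probe sets, 207549_x_at and 211574_s_at, passed no test on the quantile-normalized scale. As deposited, mifepristone was called higher than dexamethasone on 207549_x_at (0.61, adjusted p = 0.021) and higher than non-treated cells on both (0.73 and 0.71). Their differences were -0.00 and -0.19 for match against dexamethasone, with 95% intervals of -0.32 to 0.31 and -0.50 to 0.13. No CD46 probe set rose past the test with match, where CD55 was 5.06-fold higher.

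CD59, the inhibitor of the membrane pore, rose with dexamethasone on 4 of its 5 probe sets, by 0.30 to 0.37 (log2). On 200985_s_at the non-treated arrays read 1218, 1078 and 1178 and the dexamethasone arrays 1430.4, 1581 and 1471. The mifepristone arrays read 1209.7, 1085 and 1267, the match arrays 733, 809 and 785 and the mismatch arrays 1150.5, 1238 and 1196. The dexamethasone arrays were above every other array and the match arrays below every other, while the non-treated, mifepristone and mismatch arrays overlapped. The dexamethasone difference from non-treated cells was 0.36 (SE 0.07, adjusted p = 0.0019), 1.29-fold. It was 0.37 (adjusted p = 0.00036) on 200984_s_at, 0.37 (adjusted p = 0.0067) on 212463_at and 0.30 (adjusted p = 0.03) on 200983_x_at. The fifth probe set, 228748_at, was dim (16.2 to 54.2 over the 15 arrays) and passed no test, at 0.47 (adjusted p = 0.31). With signals as deposited none of the 5 passed, although the 4 differences stayed at 0.32 to 0.39. With median centring 212463_at and 200983_x_at did not pass (adjusted p = 0.10 and 0.21). The call on 200983_x_at was also lost with no variance trend (adjusted p = 0.16) and without non-treated replicate 2 or 3 or any 1 dexamethasone array (adjusted p = 0.059 to 0.16).

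With mifepristone, 3 CD59 probe sets were lower than with dexamethasone on the quantile-normalized scale, but 0.016 to 0.11 higher and not past the test on the signals as deposited, which is 0.23 to 0.32 lower relative to the shift of all probe sets. With median centring the 3 were -0.25 to -0.15 and not past the test either (adjusted p = 0.26 to 0.42). On the quantile-normalized scale the differences were -0.36 (adjusted p = 0.00082) on 200984_s_at, -0.33 (adjusted p = 0.0065) on 200985_s_at and -0.44 (adjusted p = 0.0019) on 212463_at. The call on 200985_s_at was also lost with no variance trend (adjusted p = 0.091) and without dexamethasone replicate 2 or mifepristone replicate 2 (adjusted p = 0.053 and 0.060). Against non-treated cells, the mifepristone group differed by 0.02, 0.03 and -0.07 on the same probe sets, and none passed the test. As deposited, 200984_s_at and 200985_s_at were called higher there (0.47 and 0.49).

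The polyamides lowered CD59 unevenly across its probe sets. Match lowered 200985_s_at by 1.91-fold against dexamethasone, a log2 difference of -0.93 (SE 0.07, adjusted p = 1.6e-09). The differences on 200984_s_at and 200983_x_at were -0.76 (adjusted p = 4.5e-09) and -0.37 (adjusted p = 0.00093), the last not past the test as deposited (adjusted p = 0.12). On 212463_at the match difference was -0.17 (adjusted p = 0.13), which did not pass. Mismatch lowered 200984_s_at, 200985_s_at and 212463_at, with differences of -0.26 (adjusted p = 0.0028), -0.32 (adjusted p = 0.0018) and -0.37 (adjusted p = 0.0017), and these 3 calls were lost on signals as deposited and on median-centred signals.

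The probe sets disagreed most on the match arrays. On 212463_at the non-treated arrays read 273, 291 and 272, the dexamethasone arrays 359, 349 and 386 and the match arrays 315, 338 and 315. The mifepristone arrays read 254, 285 and 258 and the mismatch arrays 274, 290.0 and 271. Here the match arrays lay between the dexamethasone and the non-treated arrays and did not overlap either, whereas on 200985_s_at they lay below both. Match differed from non-treated cells by -0.57 (adjusted p = 1.9e-06) on 200985_s_at and by 0.20 (adjusted p = 0.069) on 212463_at. Against mismatch, match was -0.49 (adjusted p = 8.1e-06) on 200984_s_at and -0.61 (adjusted p = 3.1e-06) on 200985_s_at, and 0.20 (adjusted p = 0.095) on 212463_at. The annotation used here does not give which transcripts of CD59 each probe set reads.

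**Figure D2:**
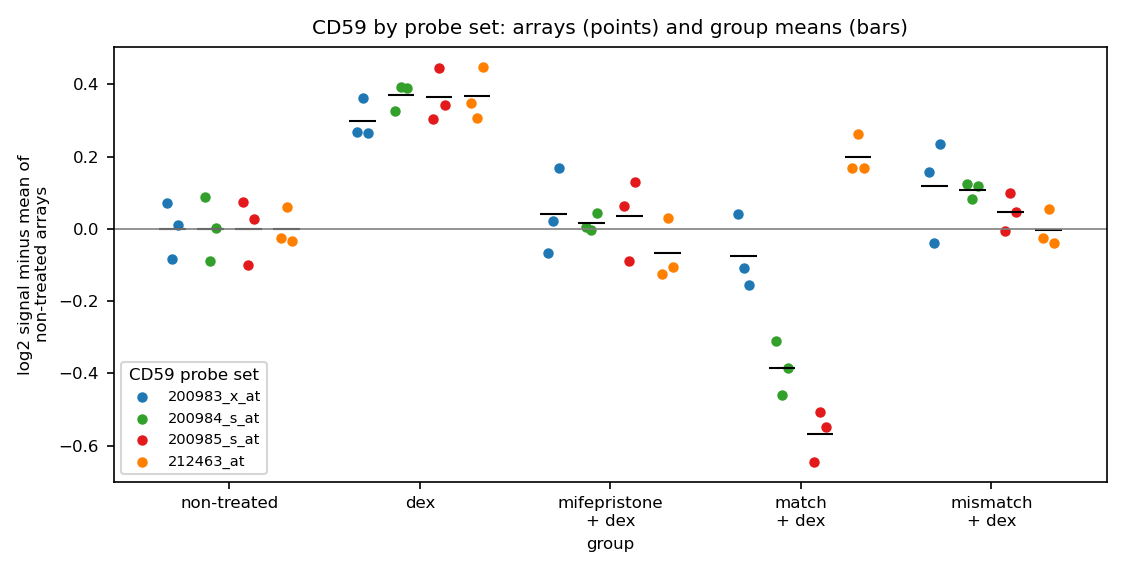
CD59 on the 4 brighter probe sets (colours), as log2(signal + 16) minus the mean of the non-treated arrays (vertical axis), by group (horizontal axis, dex is dexamethasone). Points are arrays and bars group means. All 4 lie above 0 with dexamethasone, and with match 200985_s_at averages -0.57 while 212463_at averages 0.20.

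Among the components, C3 rose with dexamethasone and was lower with each of the 3 compounds than with dexamethasone alone. The non-treated arrays read 105, 109.6 and 133 and the dexamethasone arrays 241, 221 and 259. The mifepristone arrays read 116, 127 and 139, the match arrays 78.7, 91.8 and 76.4 and the mismatch arrays 88.9, 108 and 142. The 3 dexamethasone arrays stood above all others. The 3 match arrays and 1 mismatch array lay below all non-treated and mifepristone arrays. Dexamethasone raised C3 1.95-fold, a log2 difference of 0.97 (SE 0.14, adjusted p = 7.8e-05), which ranked 324 from the highest of 39744. The log2 difference from dexamethasone was -0.84 (SE 0.14, adjusted p = 0.00057) with mifepristone, -1.38 (SE 0.14, adjusted p = 1.0e-07) with match and -1.01 (SE 0.14, adjusted p = 1.4e-05) with mismatch. On signals as deposited the mifepristone difference was -0.39 (adjusted p = 0.15), or -0.73 relative to the shift of all probe sets.

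Against non-treated cells, C3 was 0.13 (adjusted p = 0.93) with mifepristone and -0.05 (adjusted p = 0.87) with mismatch, neither past the test, and -0.42 (adjusted p = 0.025) with match. The match call failed without non-treated replicate 3 or match replicate 1 or 3 (adjusted p = 0.067 to 0.13) and on signals as deposited (-0.39, adjusted p = 0.21). Match against mismatch was -0.37 (adjusted p = 0.072), with a 95% interval of -0.66 to -0.08, and passed the test without mismatch replicate 1 (-0.51, adjusted p = 0.019), with median centring (-0.49, adjusted p = 0.044), with the filter at the 60th percentile (adjusted p = 0.049) and with the replicate block (adjusted p = 0.047).

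Against dexamethasone, the polyamides moved C5 past the test in opposite directions. The non-treated arrays read 450.4, 420.0 and 444, the dexamethasone arrays 339.9, 360.2 and 393 and the mifepristone arrays 434, 413 and 382. The match arrays read 264, 232 and 245 and the mismatch arrays 448, 428 and 443. The match arrays were below all others, and the mismatch arrays lay within the range of the non-treated arrays and above all dexamethasone arrays. Match was -0.53 (SE 0.08, adjusted p = 2.4e-05) from dexamethasone, 1.45-fold lower, and mismatch was 0.26 (SE 0.08, adjusted p = 0.021) from it, 1.20-fold higher. The mismatch call failed without dexamethasone replicate 1 or 2 or mismatch replicate 1 or 3 (adjusted p = 0.057 to 0.10) and on signals as deposited (0.45, adjusted p = 0.077), and with no variance trend (adjusted p = 0.052). Match was 1.74-fold lower than mismatch, a log2 difference of -0.80 (SE 0.08, adjusted p = 7.4e-07), and its difference from non-treated cells was -0.79 (adjusted p = 1.6e-07). Mismatch differed from non-treated cells by 0.0044 (adjusted p = 0.98), which did not pass. Dexamethasone alone was -0.26 (adjusted p = 0.078) from non-treated cells, and mifepristone 0.16 (adjusted p = 0.42) from dexamethasone, neither past the test. As deposited, the mifepristone difference was 0.60 (adjusted p = 0.019), or 0.26 relative to the shift of all probe sets.

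C1S, the protease of the C1 complex that cleaves C4 and C2, had the deepest fall. On 208747_s_at the non-treated arrays read 189, 177 and 219.8, the dexamethasone arrays 260.5, 246 and 269 and the mifepristone arrays 199.9, 213 and 257. The match arrays read 47.1, 35.4 and 22.7 and the mismatch arrays 92.5, 77.1 and 67.7. The match arrays were below the mismatch arrays, which were below the 9 arrays without a polyamide. Match lowered it by 5.48-fold against dexamethasone, a log2 difference of -2.45 (SE 0.15, adjusted p = 1.2e-10), and mismatch by 2.90-fold, a difference of -1.54 (SE 0.15, adjusted p = 2.7e-07). The difference of match from mismatch was -0.92 (SE 0.15, adjusted p = 0.00023). On 208747_s_at both polyamides also lay below non-treated cells, with differences of -2.07 (adjusted p = 1.6e-09) for match and -1.15 (adjusted p = 9.7e-06) for mismatch.

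The second C1S probe set, 1555229_a_at, fell to 10.4, 12.6 and 4.03 on the match arrays, against 84.7, 133 and 86.4 on the dexamethasone arrays. Of these match values 2 lie under the 40th percentile of an array, so the size there depends on the added constant: the match difference from dexamethasone was -3.45 with 1 added and -1.17 with 64 added, and past the test with either. The differences were -2.22 (adjusted p = 3.7e-07) for match, -1.26 (adjusted p = 0.0006) for mismatch and -0.97 (adjusted p = 0.0076) between them. Against non-treated cells, match was -1.47 (adjusted p = 7.5e-05) here and mismatch -0.50 (adjusted p = 0.17), which did not pass. The mismatch arrays, at 43.6, 17.1 and 41.3, overlapped the non-treated arrays, at 66.5, 38.9 and 54.2. In the match comparison the 2 C1S probe sets ranked 84 and 155 from the lowest of 39744. With dexamethasone alone, C1S was 0.76 (adjusted p = 0.088) and 0.38 (adjusted p = 0.21) from non-treated cells on 1555229_a_at and 208747_s_at. All dexamethasone arrays were above all non-treated arrays on both probe sets, and neither passed the test over all arrays, while both passed in a fit to the 6 arrays compared (adjusted p = 0.031 and 0.047). On the same probe sets mifepristone was -0.16 (adjusted p = 0.88) and -0.21 (adjusted p = 0.68) from dexamethasone. From non-treated cells it was 0.60 (adjusted p = 0.67) and 0.18 (adjusted p = 0.90). None of these passed, but as deposited both were called higher than non-treated cells (1.02 and 0.64).

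C1R, which encodes the protease that activates C1s, is 9186 bases from C1S on chromosome 12 (C1S at 7060718 to 7071032, C1R at 7080219 to 7092445, GRCh38.p14). It moved less than C1S. The non-treated arrays read 85.6, 81.7 and 71.1, the dexamethasone arrays 112, 95.4 and 99.6 and the mifepristone arrays 97.6, 97.6 and 68.9. The match arrays read 84.1, 75.1 and 57.5 and the mismatch arrays 92.7, 80.6 and 80.0. The dexamethasone arrays lay above the match and the mismatch arrays, which overlapped each other and the non-treated arrays. Match was -0.43 (adjusted p = 0.026) from dexamethasone with a 95% interval of -0.73 to -0.13, and the call failed without dexamethasone replicate 1 or 3 or match replicate 3 (adjusted p = 0.051 to 0.15), as deposited (adjusted p = 0.15) and in a fit to the 6 arrays compared (adjusted p = 0.051). Mismatch was -0.24 (adjusted p = 0.28) from dexamethasone, and dexamethasone alone 0.31 (adjusted p = 0.32) from non-treated cells, neither past the test.

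CFB and SERPING1 were dim. CFB, which encodes factor B, ran from 14.2 to 37.8 on 202357_s_at over the 15 arrays and passed no test, with -0.02 (adjusted p = 0.94) for match and 0.31 (adjusted p = 0.25) for mismatch against dexamethasone. Its other probe set ran from 0.76 to 10.4. SERPING1 ran from 0.70 to 21.1, and neither was tested.

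Counted over all members, dexamethasone raised 5 of the 17 tested probe sets and lowered none, where 2.56% of all tested probe sets were called higher and 2.29% lower. The 5 were 4 of CD59 and that of C3, so 2 of 8 genes account for them. Their groups did not overlap on 10 of 17 probe sets, against 20.4% of all. The median difference of the 17 was 0.30, against -0.01 over all. That median was the value of a CD59 probe set, and CD59 holds 5 of the 17, so it is weighted to this gene.

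Mifepristone raised 1 member probe set (1.61% of all were called higher) and lowered 4 (1.94% of all) against dexamethasone, and the groups did not overlap on 6 of 17 (17.7% of all). The 4 lowered were 3 of CD59 and that of C3. The median member difference was -0.16, against 0.01 over all. Of all calls for mifepristone against dexamethasone 45.3% were higher, and on signals as deposited 97.2%. Against non-treated cells, the mifepristone group differed on 0 of 17 by limma at the adjusted threshold, where 0.121% of all probe sets were called higher and 0.0453% lower, and 2 members had an unadjusted p under 0.05 (6.67% of all). Their groups did not overlap on 3 of 17 (13.0% of all). On signals as deposited 10 of the 17 were called higher (14.5% of all), in a comparison in which all probe sets shifted by a median of 0.37.

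Match raised 3 of 17 against dexamethasone (15.9% of all were called higher) and lowered 8 (14.9% of all), with a median of -0.33 against 0.03 over all and no overlap on 13 of 17 (39.8% of all). The 3 raised were those of CD55. The 8 lowered were 3 of CD59, 2 of C1S and those of C3, C5 and C1R. Mismatch raised 4 (12.0% of all), which were those of CD55 and C5, and lowered 6 (10.9% of all), which were 3 of CD59, 2 of C1S and that of C3. Its median was -0.18 against 0.02 over all, with no overlap on 12 of 17 (35.8% of all). The medians of match and of mismatch were both values of CD59 probe sets, that of match on the dim 228748_at.

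Compared directly, match was higher than mismatch on the 3 CD55 probe sets (7.47% of all were called higher) and lower on 6 (9.38% of all), which were 2 of CD59, 2 of C1S, 1 of CD46 and that of C5. The groups did not overlap on 11 of 17 (29.9% of all). Of all calls between match and mismatch 44.3% were higher with match, and on signals as deposited 18.0%. Against non-treated cells, match was higher on 3 (15.1% of all) and lower on 7 (14.8% of all), and mismatch was higher on 3 (10.3% of all) and lower on 1 (10.6% of all). In each, the 3 raised were those of CD55, and the 1 lowered by mismatch was C1S 208747_s_at. On 11 and 4 of 17 these groups did not overlap, against 39.7% and 35.0% of all.

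**Figure D3:**
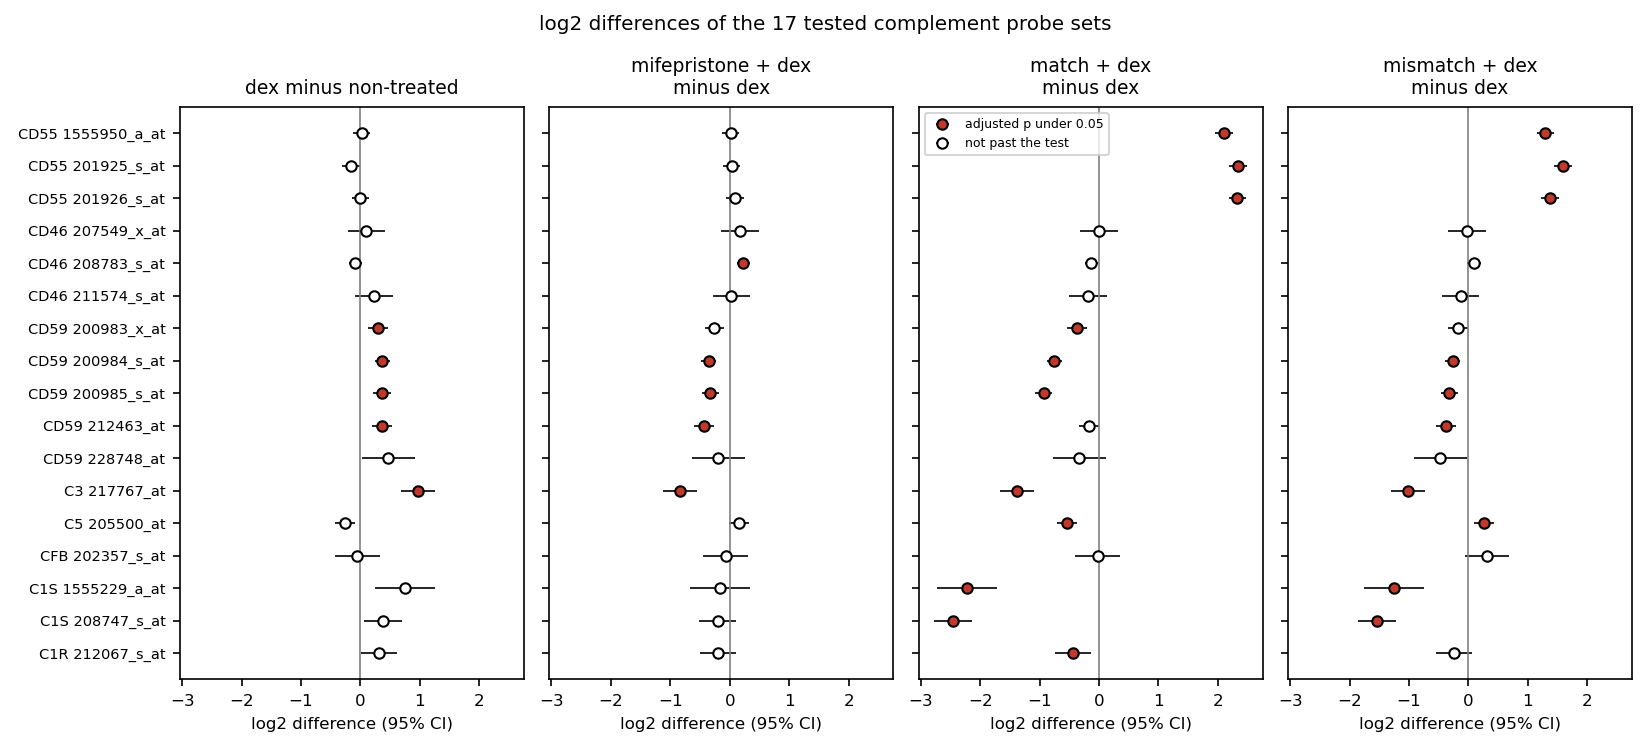
Log2 differences (horizontal axes) with 95% intervals of the 17 tested complement probe sets (rows) in 4 comparisons (dex is dexamethasone). Filled points passed the test at an adjusted p under 0.05. Dexamethasone points of CD59 and C3 lie right of 0, and with match CD55 reaches 2.34 and C1S -2.45.

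**Figure D4:**
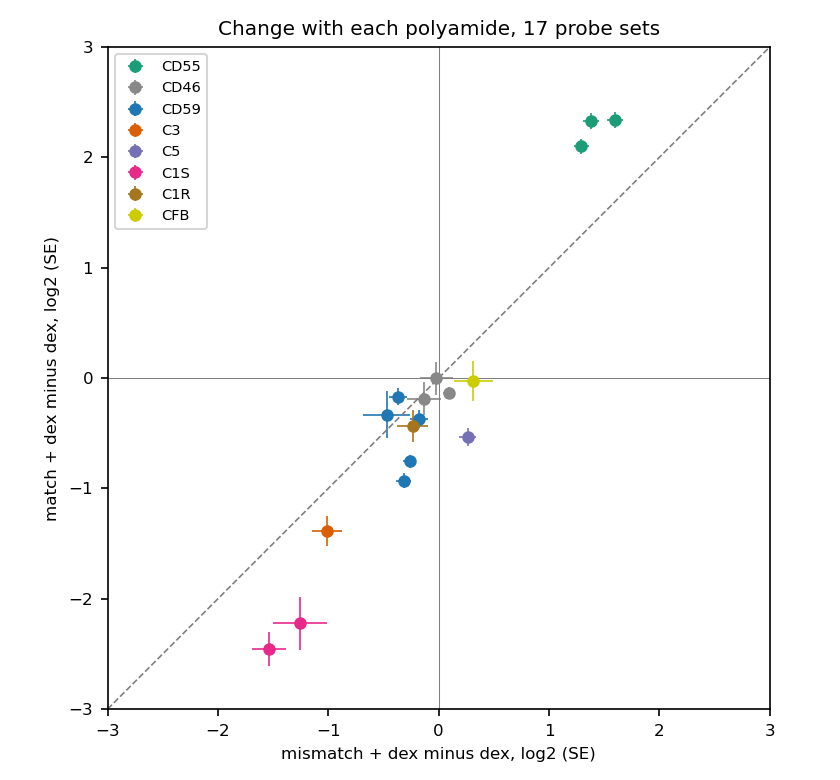
Log2 difference from dexamethasone (dex) with mismatch (horizontal axis) and with match (vertical axis) for the 17 probe sets, with SE bars and a dashed line of equal change. Both axes share the dexamethasone arrays. CD55 lies above the line at upper right, C1S below it at lower left, and C5 at 0.26 and -0.53 in the lower right.

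The rest of the complement system was read with 1 probe set per gene, for which 16358 genes had a tested probe set. Of 23 other components listed, 13 were tested. Dexamethasone changed none of them at the adjusted threshold of limma (3.19% of all genes were called higher and 3.60% lower). Neither did mifepristone against dexamethasone (2.53% and 2.76%). On the signals as deposited, 2 of the 13 were called higher with mifepristone, where 19.9% of all tested probe sets were. Match raised 1, COLEC11, a collectin that starts the lectin pathway, from a mean signal of 14.5 to 42.4, 0.94 (adjusted p = 0.0023), where 21.5% of all genes were called higher and 17.4% lower. Mismatch changed none against dexamethasone (17.9% higher and 11.8% lower over all). The median difference of the 13 was 0.14 with match and 0.08 with mismatch, against 0.05 and 0.07 over all genes.

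Of 21 other regulators, 15 were tested. Over all genes, 3.19% were called higher and 3.60% lower with dexamethasone. Against dexamethasone, 2.53% were called higher and 2.76% lower with mifepristone, 21.5% and 17.4% with match, and 17.9% and 11.8% with mismatch. Dexamethasone raised THBD, thrombomodulin, an endothelial anticoagulant receptor that also promotes inactivation of C3b, from a mean of 178 to 664, 1.81 (adjusted p = 5.0e-12), and none of the other 14 passed. Mifepristone lowered THBD alone among the 15, with a difference of -1.22 (adjusted p = 4.2e-09). As deposited, 3 others were called higher with mifepristone, where 19.9% of all tested probe sets were. Match lowered 3 and raised 1: PROS1, protein S, which circulates partly bound to C4b-binding protein, -0.91 (adjusted p = 4.3e-06), C1RL, a C1r-like protease, -0.70 (adjusted p = 0.0008), THBD, -0.34 (adjusted p = 0.0024), and, upward, C1QBP, a protein that binds the globular heads of C1q, 0.13 (adjusted p = 0.029). The C1QBP call was lost under each of the 3 other array scalings, and that of THBD on signals as deposited. Mismatch lowered THBD, -0.77 (adjusted p = 6.2e-07), and PROS1, -0.56 (adjusted p = 0.0015), and raised the dim CFHR4, 0.58 (adjusted p = 0.032), a factor H-related gene whose family members are close in sequence, so its signal is uncertain. As deposited, PROS1 did not pass with mismatch (-0.40, adjusted p = 0.15). THBD was higher with match than with mismatch, at 0.42 (adjusted p = 0.00087), which passed neither as deposited (0.28, adjusted p = 0.40) nor with median centring (0.28, adjusted p = 0.11).

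Of 10 receptors, 6 were tested. Dexamethasone and mifepristone moved none past the test (3.19% and 2.53% of all genes were called higher, and 3.60% and 2.76% lower). Of all genes, 21.5% were called higher with match and 17.9% with mismatch. Both polyamides raised C5AR1, the receptor of the C5 fragment C5a, by 0.85 (adjusted p = 0.00011) with match and 0.76 (adjusted p = 0.00064) with mismatch, from a mean of 41.3 to 87.7 and 80.8. They also raised ITGAM, a chain of complement receptor 3, from 21.4 to 51.7 and 51.9, 0.88 (adjusted p = 0.00039) and 0.88 (adjusted p = 0.00064). ITGAM marks myeloid cells. The 5 leukocyte markers summed to at most 120 on any array and none of the 3 tested passed a test with either polyamide. The highest single marker among them read 47.9 with dexamethasone, 68.9 with match and 71.4 with mismatch. The source of the ITGAM signal was not tested.

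Of 17 signalling factors of the interferon, interleukin-6 and NF-kappaB pathways, which act on complement genes, 15 were tested. Dexamethasone raised 7 (3.19% of all genes were called higher) and lowered none (3.60% of all). CEBPD, a transcription factor of the acute phase response, was at 1.59 (adjusted p = 1.7e-12). IFNGR1, a chain of the interferon gamma receptor, was at 1.03 (adjusted p = 1.7e-07). Mifepristone lowered 8 (2.76% of all genes) and raised none (2.53% of all), with CEBPD at -1.28 (adjusted p = 9.2e-11) and IFNGR1 at -0.69 (adjusted p = 6.1e-05). The IFNGR1 call was lost on signals as deposited (-0.26, adjusted p = 0.24). On signals as deposited 2 of the 15 were lower and 1 higher with mifepristone. Of all 39744 tested probe sets, 232 were called lower there and 7910 (19.9%) higher. The differences of STAT3 and IL6ST turned positive on that scale (0.18 and 0.083, not past the test). Relative to the shift of all probe sets they were -0.17 and -0.27. Match lowered 8 (17.4% of all genes), with IL6ST, the shared receptor chain of the interleukin-6 family, at -1.61 (adjusted p = 5.7e-13), CEBPD at -1.21 (adjusted p = 1.4e-11) and the kinase JAK1 at -1.07 (adjusted p = 9.2e-10). As deposited, the match calls of STAT3 and CEBPB were lost (adjusted p = 0.30 and 0.21). Match raised 3, a count near the share over all genes (21.5%). These were IRF9 at 1.35 (adjusted p = 4.6e-07), RELA at 0.56 (adjusted p = 0.0001) and IRF1 at 0.64 (adjusted p = 0.00055), all transcription factors of interferon or NF-kappaB signalling. Mismatch lowered 6 (11.8% of all genes) and raised none (17.9% of all). IL6ST was at -0.68 (adjusted p = 4.6e-07) and IFNGR1 at -0.73 (adjusted p = 6.4e-06). As deposited, 2 of the 15 were lower with mismatch, where 1763 of all 39744 tested probe sets were called lower. The median difference of the 15 was 0.24 with dexamethasone and -0.31 with match, against -0.04 and 0.05 over all genes.

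Over the 15 arrays, the genes most like each member were found by Pearson's r of log2 signals, as a description in which the points share the 5 groups. For CD55 they were GCH1 (r = 0.990), MAFF (0.988) and ASNS (0.988). ASNS, asparagine synthetase, had mean signals of 732 with dexamethasone, 2813 with match and 1539 with mismatch, the same order as CD55. For CD59 they were PAPSS1 (0.968), WWTR1 (0.966) and RALGPS2 (0.955), for C3 HPCAL1 (0.956), BPTF (0.951) and KYAT1 (0.940), and for C5 SLC49A4 (0.960), GRB14 (0.955) and TMEM126A (0.948). For C1S they were OIP5-AS1 (0.985), MMD (0.985) and FGB (0.985), the last a fibrinogen chain with mean signals of 265 with dexamethasone, 112 with match and 169 with mismatch. For CD46 and C1R the nearest were ARHGEF40 (0.907) and TRAPPC13 (0.911), and for CFB EPM2A (0.849).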

How the data were processed

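Biotin-labelled A549 RNA was measured on 15 Affymetrix arrays, per the labels' protocols. The authors deposited linear intensity signals, 1 for each probe set and array, and MAS5 is the tool that the submitters' processing notes name. Its version and scaling target are not known here. Arrays were not scaled alike, with medians from 14.8 to 24.5 and trimmed means from 87.2 to 147 (2% trimmed), and mean trimmed means of 134 for mifepristone and 96.3 for non-treated arrays. Signals were therefore quantile normalized, which the planned design allowed for, and log2(signal + 16) was taken. No pair of arrays was identical (r = 0.977 to 0.984 for pairs of 1 group and 0.941 to 0.983 for others).

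The filter asked for 3 or more of the 15 arrays with a signal over that array's 40th percentile, which kept 39744 probe sets (72.7%), and 62 control probe sets were left out. A model with a coefficient per group and a variance trend was fitted to all arrays in limma (version 3.58.1, R 4.3.3), and p-values were adjusted by Benjamini and Hochberg over all tested probe sets. The fit was tested on simulated data. The annotation gave 1 symbol to 41097 probe sets, several to 1801 and none to 11777. A gene outside the members was read by 1 probe set with its symbol alone, not ending in _x_at where possible, then with the highest mean. The text names all member probe sets, up to 4 genes of each list and comparison with the smallest adjusted p, the 3 genes most like a member, and FKBP5 and TSC22D3. COL1A1, EPCAM, CDH1 and other genes quoted beside these were chosen after their values were seen. The members and lists were chosen with earlier results of these data known. The comparisons of the polyamides with non-treated cells were added after seeing the data. Alternatives were other array scalings, pseudocounts and filters, no variance trend, only the arrays compared, a replicate block and leaving out each array. The number of arrays limits the precision.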

Additional observations from a re-analysis of the deposited data

Results flagged for a closer look

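C5 (205500_at) was flagged because the polyamides moved it in opposite directions against the same dexamethasone arrays. The flag also required the difference between them to be called. Against non-treated cells, mismatch differed by 0.0044 and match by -0.79. Match was -0.80 from mismatch (log2, SE 0.08, adjusted p of limma = 7.4e-07, n = 3 arrays each), with all 3 match arrays below all 3 mismatch arrays. This difference passed the test in all 25 alternatives, at -0.95 to -0.70. The mismatch rise over dexamethasone on its own did not, since it was lost in 6 of the 25.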

How the results depend on the processing

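Of the results on single member probe sets, 54 were called, and 35 of these stayed called in all 25 alternatives, among them every CD55 call, every C1S call, and the C3 calls of dexamethasone against non-treated cells and of both polyamides against dexamethasone. The other 19 were lost in some alternative, and of the 82 not called, 23 were called in some alternative. Only signals as deposited reversed a call: against dexamethasone, mifepristone was 0.076 (adjusted p = 0.72), 0.11 (0.60) and 0.016 (0.95) on CD59 200984_s_at, 200985_s_at and 212463_at, where all probe sets shifted by a median of 0.34. The shifts over 0.1 on signals as deposited were 0.34, 0.12, 0.37 and 0.14, for mifepristone and mismatch against dexamethasone and then against non-treated cells.

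On signals as deposited, counts over all probe sets were 814 for dexamethasone (1927 as reported), 8142 for mifepristone (1411), 7978 for match (12252) and 3094 for match against mismatch (6697), and against non-treated cells 5792 for mifepristone (66) and 7562 for match (11864). Member counts there were 1 for dexamethasone (5 as reported), 6 for mismatch (10) and 10 for mifepristone against non-treated cells (0). For mismatch the count over all probe sets there was 6237 (9109 as reported). Median centring gave 3 members for dexamethasone and 2 for mifepristone, where 1317 and 1608 of all 39744 probe sets were called. Without the variance trend 3 members were called for mifepristone (5 as reported) and 26 probe sets for mifepristone against non-treated cells. The share of calls that were higher moved by over 10 percentage points on signals as deposited for dexamethasone (69.3% against 52.8%), mifepristone (97.2% against 45.3%), mismatch (71.7% against 52.5%) and match against mismatch (18.0% against 44.3%), and against non-treated cells for mifepristone (99.8% against 72.7%) and mismatch (72.3% against 49.3%). Median centring moved it for mifepristone (72.9%), match (41.4%), match against mismatch (20.0%) and, against non-treated cells, mifepristone (94.4%) and match (39.3%, against 50.5%). The cause was not tested.

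Leaving out 1 array, the counts over all probe sets ran from 1433 to 2025 for dexamethasone, 1000 to 1483 for mifepristone, 10809 to 12332 for match, 7514 to 9349 for mismatch, 5372 to 6735 for match against mismatch, and against non-treated cells 42 to 75 for mifepristone, 10314 to 11935 for match and 6846 to 8540 for mismatch. Member counts ran from 4 to 6, 3 to 5, 10 to 11, 9 to 10 and 9 to 10 in the first 5, and stayed at 0, 9 to 10 and 4 in the last 3. Of 30 pairs of arrays with the same replicate number, 2 had deviations correlated above 0.1 (-0.084 to 0.12), and 7 of 15 arrays matched their own number best, so the numbers were not taken as pairs. With the replicate block, 1922 probe sets were called for dexamethasone, and C3 passed between match and mismatch (adjusted p = 0.047), which made 10 members in place of 9.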
